A study of Mus musculus with 18 samples.

Results

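The 47 genes described here encode the machinery that copies DNA in S phase: proteins that license origins, the replicative helicase, the DNA polymerases, the sliding clamp and its loader, single-strand DNA binding proteins, the enzymes that join Okazaki fragments, the enzymes that supply deoxynucleotides and the proteins that restore chromatin and DNA methylation behind the fork. They were taken by symbol from a list of replication genes, drawn up with earlier results of these data known, and all 47 were found among the 17759 genes listed for crypts, the 17423 listed for day 1 and the 17612 listed for day 3. RNA was sequenced in bulk from the duodenum of 3 WT (Mtgr1+/+) and 3 Mtgr1-/- mice, age-matched littermates of both sexes, the null allele being carried in every cell of the animal and no cell type being sorted. Each mouse gave 3 libraries, namely freshly isolated crypts (day 0), enteroids 24 h after plating (day 1) and enteroids 72 h after plating (day 3), so that 18 libraries form 6 groups of 3. Enteroids are 3-dimensional epithelial cultures that grow from crypts in Matrigel with EGF, Noggin and R-spondin, and both genotypes were cultured in the same way. MTGR1 is a transcriptional corepressor, and the comparison asks how gene expression differs between cultures of the 2 genotypes while those without MTGR1 are lost.

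DNA replication is prepared in G1, when the origin recognition complex, CDC6 and CDT1 load the MCM2-7 helicase onto origins, and geminin then blocks a new round of loading. In S phase, CDC45 and the GINS complex switch the helicase on, primase and polymerase alpha lay down primers, polymerases epsilon and delta extend the strands on the PCNA clamp, and FEN1 and LIG1 process and seal the lagging strand. Transcription of many of these genes rises towards S phase under E2F factors, and in the intestine their RNAs are carried mainly by the dividing stem and progenitor cells of the crypt.

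Promoters were taken from a set of windows at RefSeq start sites (build GRCm38.p6), each of 250 bases before to 50 bases after the start. In that set, 39 of the 47 genes had at least 1 window. The 8 without one were Gins1, Gins2, Gins4, Gmnn, Mcm4, Pole, Prim2 and Rfc2. Whether RefSeq lists a start site for these 8 was not checked. The E2F motif was searched as TTTCCCGC, TTTGGCGC, TTTCGCGC and TTTGCCGC on both strands. It matched in 16 of the 48 windows of the 39 genes (33.3%), each in a different gene, against 2.27% of 32841 windows of all genes. CCAAT matched in 60.4% of the windows against 37.4% of all windows, and the cell cycle homology element, searched as TTTGAA or TTCGAA, in 16.7% against 19.2%. The motif forms can overlap, and a match is a description of letters, not a measured binding site. The 190 bases before the start site are shown for 5 genes whose stretch holds no annotated untranslated region, 4 with E2F matches (in capitals) and Mcm2 with none in its window, to show what the searched letters look like in place. The 5 were picked after their values were seen, so their differences say nothing about the motif. A match on the other strand is printed as its reverse complement.
Mcm5 (chr8:75109319-75109508, plus strand): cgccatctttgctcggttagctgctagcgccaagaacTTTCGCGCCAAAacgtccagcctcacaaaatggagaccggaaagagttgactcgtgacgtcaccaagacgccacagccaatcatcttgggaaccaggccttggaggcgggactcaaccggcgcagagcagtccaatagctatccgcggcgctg
Mcm6 (chr1:128359706-128359895, minus strand): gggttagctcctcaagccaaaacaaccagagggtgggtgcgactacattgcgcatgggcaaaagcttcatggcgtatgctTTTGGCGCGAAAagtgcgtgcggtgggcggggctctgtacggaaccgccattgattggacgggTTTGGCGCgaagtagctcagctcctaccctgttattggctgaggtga
Pola1 (chrX:93632156-93632345, minus strand): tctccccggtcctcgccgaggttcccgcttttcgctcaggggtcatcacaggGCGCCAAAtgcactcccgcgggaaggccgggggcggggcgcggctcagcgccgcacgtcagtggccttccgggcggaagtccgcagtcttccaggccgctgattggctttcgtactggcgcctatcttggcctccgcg
Uhrf1, start inside the gene (chr17:56304123-56304312, plus strand): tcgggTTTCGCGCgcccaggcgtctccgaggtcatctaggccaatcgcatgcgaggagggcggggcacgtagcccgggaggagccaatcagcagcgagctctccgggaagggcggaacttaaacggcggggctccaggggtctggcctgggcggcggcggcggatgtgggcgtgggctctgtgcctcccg
Mcm2 (chr6:88898781-88898970, minus strand): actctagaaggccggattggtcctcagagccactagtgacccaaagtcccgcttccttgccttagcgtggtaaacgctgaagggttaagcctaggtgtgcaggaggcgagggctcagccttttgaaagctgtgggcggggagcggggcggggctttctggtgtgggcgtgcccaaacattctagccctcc
In Mcm5 and in the upstream element of Mcm6, matches on the opposite strands overlap, so that the capitals run past 8 letters. At day 1, the 16 genes with an E2F match had a median log2 difference between genotypes of -1.34 (range -1.49 to -1.05), and the 23 genes with a promoter window and no match had a median of -1.18 (range -1.505 to -0.14), values given as a description with no test.

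The deposited values are counts per gene divided by 1 factor per library, here called normalized counts, and each time point was scaled on its own. Sequencing depth, recovered from the steps between low values, was 22035316 to 29661084 reads per library, and the gene with the fewest reads among the 47 had 62 reads in its lowest library, so depth was not the limit for any of them. The RNA of Mtgr1 itself (listed as Cbfa2t2) did not pass the test at any time point, with 614, 523 and 595 normalized counts in WT crypts and 697, 466 and 534 in Mtgr1-/- crypts (limma, -0.05 on the log2 scale, adjusted p = 0.917). Cbfa2t2 differed by 0.37 at day 1 (adjusted p = 0.0557) and by 0.06 at day 3 (adjusted p = 0.686). A gene-level sum over all exons does not show whether a part of the gene is missing, so these values do not check the genotype, which rests on the labels. In crypts, the summed level of 12 leukocyte markers was 995 CPM (normalized counts scaled to a common library total) in WT replicate 3 against 99.0 and 116 in the other WT libraries and 31.9 to 115 in the Mtgr1-/- libraries, so that crypt results are also given without that library. Epithelial markers summed to between 4897 and 9571 CPM in all 18 libraries, and stromal and endothelial markers to at most 11 CPM.

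The summed level of the 47 genes was higher in every WT enteroid library than in any WT crypt library, whereas Mtgr1-/- enteroid and crypt libraries overlapped. In CPM, that is, as a share of each library's own total, the WT libraries held 1988, 1960.0 and 1625 in crypts, 3655, 4051 and 4053 at day 1, and 4253, 4348 and 4377 at day 3. The Mtgr1-/- libraries held 1825, 2085 and 1231 in crypts, 1400.1, 1876 and 1265 at day 1, and 2459, 1406 and 1990.3 at day 3. The genotypes overlapped in crypts, whereas at day 1 and day 3 every Mtgr1-/- library lay below every WT library. Mean sums were 1857 ± 202 (SD, n = 3) CPM in WT crypts and 1714 ± 438 in Mtgr1-/- crypts, 3920 ± 229 and 1514 ± 321 at day 1, and 4326 ± 64.6 and 1952 ± 527 at day 3. No test of levels was made between time points. In bulk RNA, fewer cells of a type and less RNA per cell cannot be told apart.

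**Figure D1:**
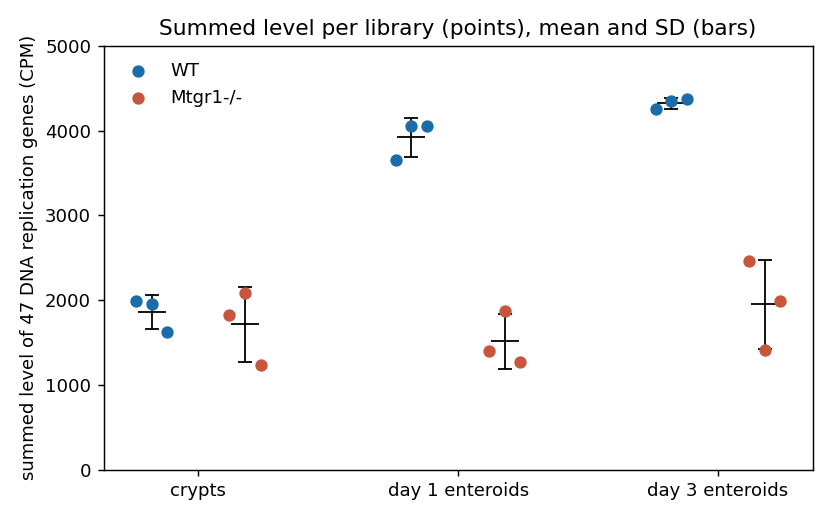
Summed level of the 47 DNA replication genes in CPM (y axis, from 0) for each of the 18 libraries (points), by time point and genotype, with the mean and SD of 3 libraries (bars). WT libraries sit between 1625 and 1988 CPM in crypts and between 3655 and 4377 in enteroids, and Mtgr1-/- enteroid libraries sit between 1265 and 2459.

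Gene by gene, all 47 genes had every WT day 1 library above every WT crypt library in CPM, which 45.1% of all genes with a crypt mean of at least 1 CPM did. The day 1 level divided by the crypt level had a median of 2.06 over the 47 genes in WT, from 1.43 for Rpa3 to 2.83 for Mcm3, against 1.145 over all genes. The MCM helicase genes had the largest median ratio of the groups in WT, 2.48, and the clamp and clamp loader genes the smallest, 1.89. By day 3 the WT median ratio to crypts was 2.28, against 1.21 over all genes. In Mtgr1-/- libraries the day 1 ratio had a median of 0.795 against 0.895 over all genes, and 2 of the 47 genes, Pcna and Rrm2, had every day 1 library above every crypt library, against 14.8% of all genes. In 3 genes, Pold2 (an accessory subunit of polymerase delta), Rpa3 and Tyms (thymidylate synthase), every Mtgr1-/- day 1 library lay below every Mtgr1-/- crypt library, which 24.7% of all genes did. Pcna went from 156 ± 32.1 to 217 ± 18 CPM in Mtgr1-/- (ratio 1.39) and from 155 ± 7.99 to 298 ± 7.67 in WT (ratio 1.92). Rrm2 went from 50.2 ± 7.76 to 88.2 ± 8.2 CPM in Mtgr1-/- (ratio 1.76) and from 55.9 ± 0.385 to 137 ± 18.8 in WT (ratio 2.45). Rrm2 and Pcna thus had, of the 47, the 2 highest ratios in Mtgr1-/- libraries. At day 3 the median Mtgr1-/- ratio to crypts was 1.08 against 1.02 over all genes, and 37 of 47 genes had a day 3 mean above their crypt mean, as did 54.2% of all genes.

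**Figure D2:**
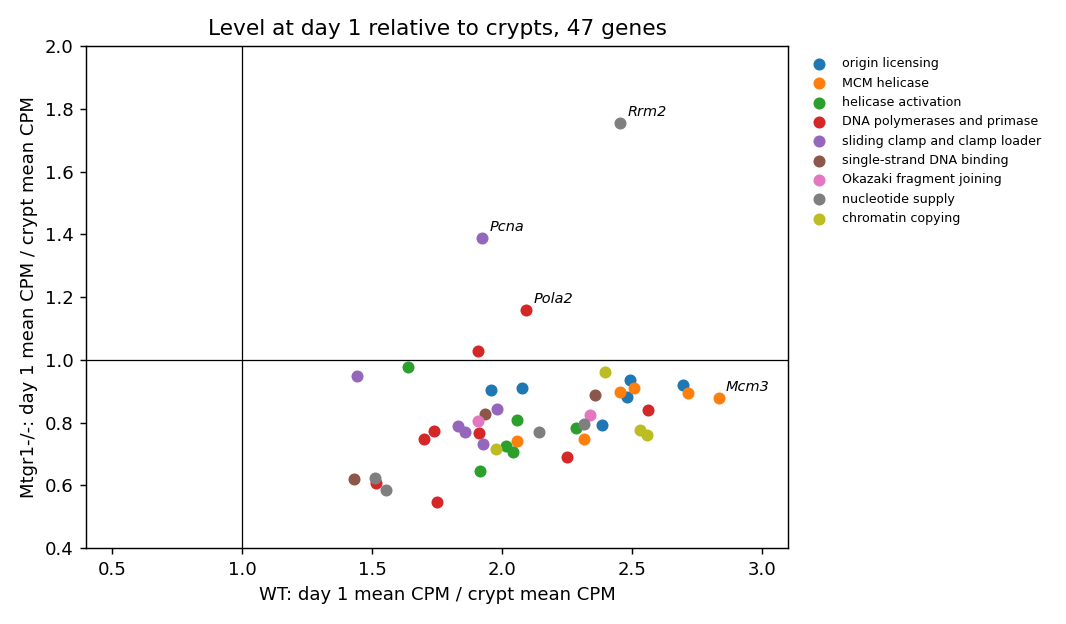
Ratio of the day 1 mean to the crypt mean in CPM for each of the 47 genes (points, coloured by role), WT on the x axis and Mtgr1-/- on the y axis, with lines at a ratio of 1. All 47 points lie to the right of 1 on the WT axis, between 1.43 and 2.83, and 4 lie above 1 on the Mtgr1-/- axis, with Rrm2 (1.76) and Pcna (1.39) highest.

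Per kilobase of exon, Pcna had the highest level of the 47 genes in WT day 1 enteroids, 124 CPM per kb, followed by Mcm6 at 50.1 and Rrm2 at 49.5, and Gins3 had the lowest at 3.48. In Mtgr1-/- day 1 enteroids Pcna was at 90.4 CPM per kb, Rrm2 at 31.8 and Mcm6 at 15.4. Before division by length, Mcm6 was at 234 ± 12.3 and Rrm2 at 137 ± 18.8 CPM in WT, a spread that covers the small gap between their levels per kb.

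At day 1, 46 of the 47 replication genes were lower in Mtgr1-/- than in WT enteroids and none was higher, with a median log2 difference of -1.26 (limma on log2(normalized count + 1), Benjamini-Hochberg adjusted p below 0.05 over 12587 genes). Of all genes tested, 28.9% were lower and 30.0% higher, and the median of all genes was -0.01. In all 47 genes every Mtgr1-/- library lay below every WT library, which 33.9% of all genes did. A difference of at least 2-fold towards lower in Mtgr1-/- was measured in 38 of the 47 (80.9%) against 10.6% of all genes tested. The differences ran from -1.67 for Gins2 to -0.14 for Pcna, the only gene of the 47 that did not pass. When values were scaled to library totals instead of the authors' factors, the median of the 47 was -1.58 and that of all genes -0.33, and the genes called over the whole table changed from 3637 lower and 3776 higher to 5588 lower and 2206 higher.

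**Figure D3:**
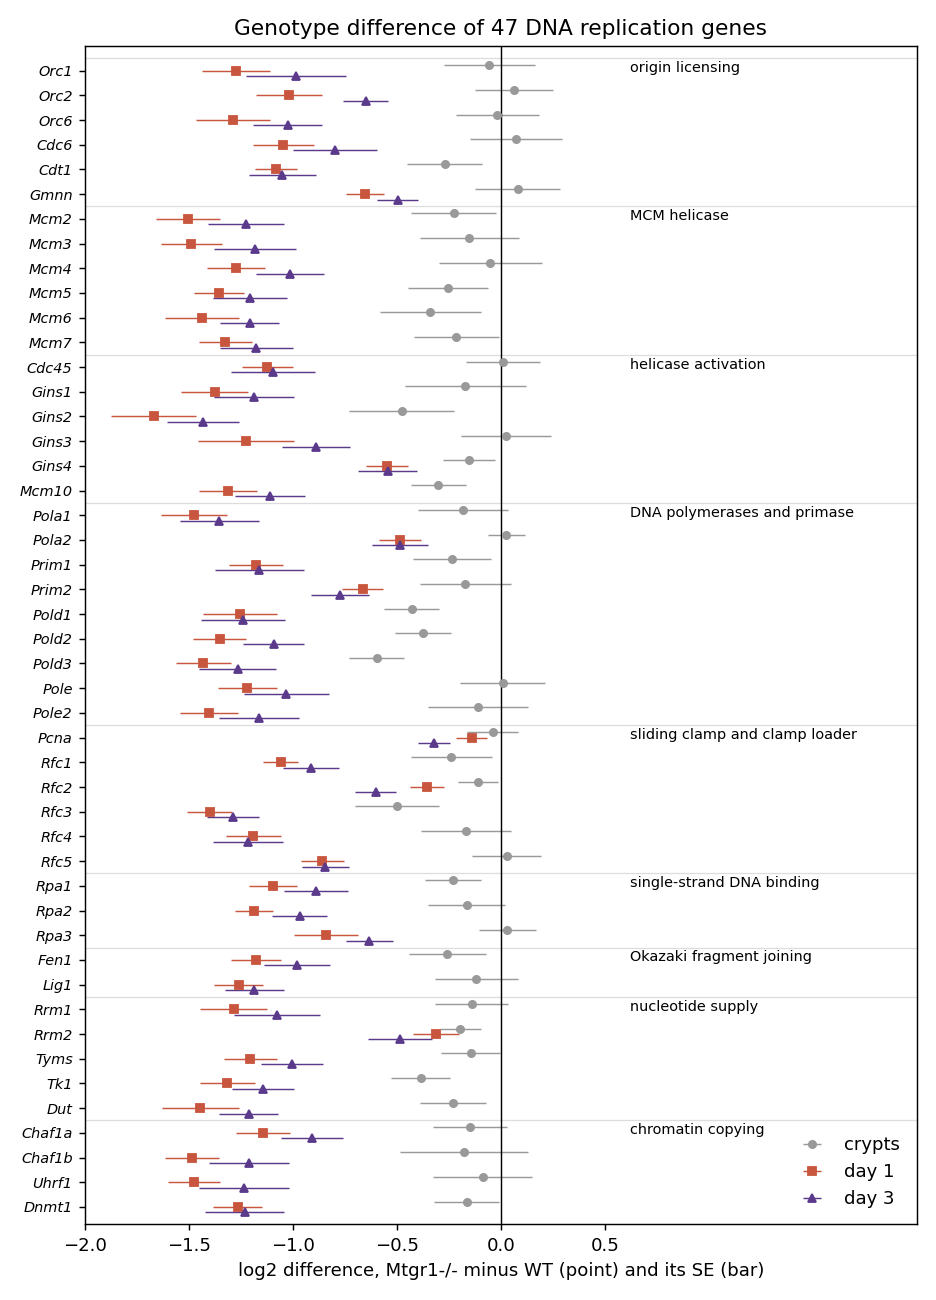
Log2 difference between genotypes (x axis, Mtgr1-/- minus WT, points) with its SE (bars) for each of the 47 genes (y axis, ordered by role) in crypts, at day 1 and at day 3, 3 libraries per genotype. Crypt values lie between -0.60 and 0.08, day 1 values between -1.67 and -0.14 and day 3 values between -1.43 and -0.32.

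The 6 origin licensing genes were all lower at day 1, with a median of -1.07, and 5 of them by at least 2-fold. Orc6, a subunit of the origin recognition complex, had 840.5, 836 and 874 normalized counts in WT and 358, 440.0 and 266 in Mtgr1-/- day 1 libraries, a log2 difference of -1.29 ± 0.18 (SE, adjusted p = 0.000789, limma). The Mtgr1-/- libraries stood at 41.7% of the WT mean and did not overlap with WT. Gmnn, which encodes geminin, the inhibitor of CDT1, had the smallest difference of the group, with 1109, 1044 and 1148 against 719.5, 725 and 655 (-0.65 ± 0.09, adjusted p = 0.00084). At day 3, Orc6 had 902, 916 and 867 in WT and 543, 334 and 467 in Mtgr1-/- libraries, and Gmnn 967, 1075 and 1075 against 812, 707 and 692. Both passed at day 3 (-1.03 ± 0.17, adjusted p = 0.00131, and -0.50 ± 0.10, adjusted p = 0.00306), as did Orc1, Orc2, Cdc6 and Cdt1. In crypts the libraries of the genotypes overlapped, with 410.2, 427 and 304 against 385, 445 and 299 for Orc6.

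The products of the 6 MCM genes form the ring-shaped helicase. At both day 1 and day 3 these genes were lower in Mtgr1-/- than in WT by at least 2-fold, within a narrow range. Mcm2 had 3299.7, 3281 and 3580.3 normalized counts in WT and 1103, 1531 and 1003 in Mtgr1-/- day 1 libraries, that is, 35.8% of the WT mean (-1.5 ± 0.15, adjusted p = 0.000276, limma). Mcm4 had the smallest day 1 difference of the group, with 3815, 3647 and 3794 against 1529, 1906 and 1275 (-1.28 ± 0.14, adjusted p = 0.000352). Mcm3 lay close to Mcm2, with 3782, 3447 and 3862 against 1291, 1630.1 and 1079 (-1.49 ± 0.15). Mcm5 differed by -1.36 and Mcm6 by -1.44. At day 3, Mcm2 had 3709, 3921 and 3987 in WT and 2122, 1208 and 1765 in Mtgr1-/- libraries (-1.23 ± 0.18, adjusted p = 0.00085), and the group ran from -1.23 to -1.02. Mtgr1-/- replicate 2 was the lowest of the 3 at day 3 in all 6 MCM genes, and the highest of the 3 at day 1. In crypts, Mcm2 had 1633, 1705 and 1343 against 1303, 1761 and 1016, and no MCM gene passed.

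The GINS subunits, which with CDC45 activate the helicase, did not differ between genotypes by one amount. Gins2 had the largest difference of all 47 genes at day 1, with 509, 588 and 592 normalized counts in WT and 150.4, 244 and 148 in Mtgr1-/- libraries (-1.67 ± 0.21, adjusted p = 0.000541, limma). It was also the largest at day 3, with 562, 693 and 668 against 256, 183 and 279.6 (-1.43 ± 0.17, adjusted p = 0.000313). Gins4 had the smallest difference of the group, with 615, 571 and 542 against 396, 406 and 378 at day 1 (-0.55 ± 0.10, adjusted p = 0.00287) and 592, 648 and 631 against 505, 348 and 444 at day 3. Its Mtgr1-/- libraries were at 68.3% of WT at day 1, where those of Gins2 were at 32.1%. Gins1, Gins3, Cdc45 and Mcm10, the last a helicase cofactor, lay between them at -1.38, -1.23, -1.12 and -1.31. In crypts, Gins2 had 349, 301 and 235 against 221, 271 and 151, overlapping groups that did not pass (-0.48 ± 0.25, adjusted p = 0.375).

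All 9 polymerase and primase genes were lower at day 1 and at day 3, with medians of -1.26 and -1.16. Pola1, the catalytic subunit of polymerase alpha, had 1130.4, 1139 and 1191 normalized counts in WT and 451, 490.3 and 319.9 in Mtgr1-/- day 1 libraries (-1.48 ± 0.16, adjusted p = 0.000339, limma). Pola2, its regulatory subunit, had 1329, 1343 and 1477 against 974, 1094 and 898 (-0.49 ± 0.10, adjusted p = 0.00462). The 2 subunits of 1 complex therefore stood at 36.5% and 71.5% of WT, and the same order held at day 3, with 1539.8, 1442 and 1569 against 754, 425 and 648 for Pola1 and 1723, 1668 and 1802 against 1520.1, 1035 and 1199 for Pola2. The primase subunits showed a like split, Prim1 at -1.18 and Prim2 at -0.67 at day 1. Without WT replicate 3, Pola2 no longer passed at day 3. The polymerase delta genes Pold1, Pold2 and Pold3 differed by -1.26, -1.35 and -1.43 at day 1, and the polymerase epsilon genes Pole and Pole2 by -1.22 and -1.40.

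Among the clamp and clamp loader genes, Rfc3 differed most between genotypes and Pcna least. Rfc3, a subunit of the loader that opens PCNA, had 889.9, 864 and 853 normalized counts in WT and 335, 357 and 296 in Mtgr1-/- day 1 libraries (-1.40 ± 0.11), the smallest adjusted p of the 47 genes at day 1 (0.000107, limma). Pcna, the clamp itself, had 7212, 6895 and 7193 against 6586, 6433 and 6299, values that did not overlap and differed by -0.14 ± 0.08 (adjusted p = 0.14). Its Mtgr1-/- libraries were at 90.7% of WT, where those of Rfc3 were at 37.9%. The call on Pcna depends on the scaling: by library totals it was lower at day 1 by -0.46 (adjusted p = 0.00224), by quantile normalization by -0.47 (adjusted p = 0.00153), and its adjusted p ran from 0.00153 to 0.295 over 17 alternatives. At day 3, Pcna was lower, with 6936, 7731 and 7590.3 against 5908, 5767 and 6115 (-0.32 ± 0.08, adjusted p = 0.00782), and Rfc3 had 909, 969 and 899 against 433, 319 and 391 (-1.29 ± 0.12). Rfc2 was the loader gene with the smallest difference, -0.36 at day 1 and -0.60 at day 3, and Rfc1, Rfc4 and Rfc5 lay between -1.19 and -0.86 at day 1. In crypts, Pcna had 3938, 4115 and 3771 against 4126, 4226 and 3226.

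**Figure D4:**
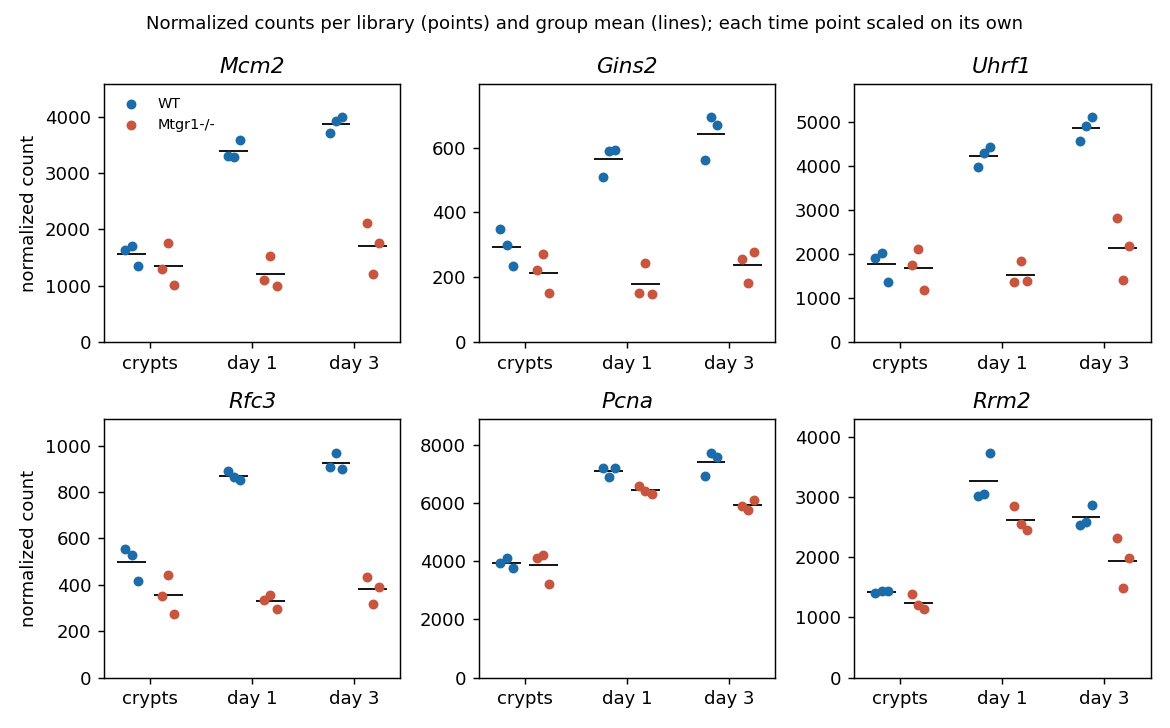
Normalized counts (y axes, from 0) of Mcm2, Gins2, Uhrf1, Rfc3, Pcna and Rrm2 in each library (points) with the group mean of 3 libraries (lines), by time point and genotype. Each time point was scaled on its own, so heights are comparable within a time point. Mtgr1-/- enteroids are far below WT for the first 4 genes, and nearer to WT for Pcna (90.7% at day 1) and Rrm2 (80.4%). These shares depend on the scaling: in CPM, the day 1 means were 217 in Mtgr1-/- and 298 in WT for Pcna, and 88.2 and 137 for Rrm2.

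The 3 subunits of replication protein A, which coats single-strand DNA, were lower at day 1 and day 3. Rpa2 had 1148, 1162 and 1166 normalized counts in WT and 543, 514 and 469 in Mtgr1-/- day 1 libraries (-1.19 ± 0.09, adjusted p = 0.000113, limma), and 1130.2, 1202 and 1293 against 720.2, 510.0 and 638 at day 3. Rpa3 had 613, 654 and 516 against 304, 398 and 296 at day 1 (-0.84 ± 0.15, adjusted p = 0.00264) and 652, 786 and 687 against 494, 416 and 458 at day 3. No library of one genotype reached into the other in either gene, and at day 3 none of the 3 subunits differed by as much as 2-fold. The 2 genes of Okazaki fragment joining had like differences between genotypes. Lig1, DNA ligase I, had 2852, 2985 and 2850.4 against 1167, 1427 and 1054 at day 1 (-1.26 ± 0.12, adjusted p = 0.000203), and Fen1, the flap endonuclease, had 2191, 2300.4 and 2187 against 954, 1169 and 854 (-1.18 ± 0.12, adjusted p = 0.000285). At day 3 they differed by -1.19 ± 0.14 and -0.98 ± 0.16.

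Of the 5 nucleotide supply genes, 4 were lower in Mtgr1-/- than in WT by at least 2-fold at day 1 and day 3. Rrm2 did not reach 2-fold. Dut, the dUTPase that keeps uracil out of DNA, had 1404, 1615 and 1436 normalized counts in WT and 533, 721 and 418 in Mtgr1-/- day 1 libraries (-1.45 ± 0.19, adjusted p = 0.000633, limma). Rrm2, the small subunit of ribonucleotide reductase, had 3016, 3039.7 and 3730.3 against 2854, 2555 and 2455 (-0.31 ± 0.11, adjusted p = 0.0405). Rrm1, the large subunit of the same enzyme, was at 41.7% of WT where Rrm2 was at 80.4%. The Rrm2 call at day 1 was lost with the mouse number as a block (-0.31, adjusted p = 0.0541), with array weights and in 5 of 6 fits without 1 library, and its adjusted p ran from 0.00266 to 0.134 over 17 alternatives. At day 3, Rrm2 had 2536, 2587 and 2859.6 against 2319, 1483 and 1989.7 (-0.48 ± 0.15, adjusted p = 0.0251), and the call was lost without any 1 of the WT libraries (adjusted p = 0.0525, 0.0610 and 0.0860). Dut at day 3 had 1651, 1780.4 and 1879 against 908, 613 and 794, and Tyms and Tk1, the enzymes that make and salvage thymidylate, differed by -1.21 and -1.32 at day 1 and by -1.01 and -1.14 at day 3.

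The 4 genes of chromatin and methylation copying were lower in Mtgr1-/- than in WT by at least 2-fold at day 1. Chaf1b, a subunit of the histone chaperone CAF-1, had 909, 899 and 1032 normalized counts in WT and 327, 394 and 297 in Mtgr1-/- day 1 libraries (-1.49 ± 0.13, adjusted p = 0.000176, limma). Chaf1a, the largest subunit of the same chaperone, had 1778, 1809 and 1881 against 744, 1012 and 741 (-1.15 ± 0.13, adjusted p = 0.000406). Uhrf1, which recruits DNMT1 to newly copied DNA, had 3985, 4291 and 4432 against 1369, 1837 and 1397 (-1.48 ± 0.12, adjusted p = 0.000146). The Mtgr1-/- libraries were thus at 35.8%, 45.7% and 36.2% of WT, and those of the maintenance methyltransferase Dnmt1 at 41.8%. At day 3, Chaf1b had 973, 964 and 1020.3 against 563, 313 and 435, Chaf1a 2059.7, 1978 and 2104 against 1333, 855 and 1129.6, and Uhrf1 4569, 4927 and 5112 against 2833, 1416 and 2187. All 3 passed at day 3, with differences of -1.21, -0.91 and -1.24.

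At day 3, all 47 genes were lower in Mtgr1-/- than in WT enteroids, with a median log2 difference of -1.08 (limma over 12782 genes, largest adjusted p 0.0251, that of Rrm2). Of all genes tested 29.1% were lower and 29.9% higher. All 47 had every Mtgr1-/- library below every WT library, against 34.2% of all genes. In 29 of the 47 (61.7%) the level was lower than in WT by at least 2-fold, against 8.91% of all genes. The group medians ran from -0.88 for the clamp and its loader to -1.22 for chromatin copying. Scaled to library totals, the median of the 47 was -1.28 beside -0.20 for all genes, with 5081 genes lower and 2755 higher over the whole table in place of 3719 and 3826. Mtgr1-/- replicate 2 was the lowest library for 46 of the 47 genes, and without it the median was -0.86 with all 47 genes still lower.

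In crypts, none of the 47 genes passed in either direction, where 3.15% of 12980 genes were lower and 1.58% higher (limma). The median log2 difference was -0.17 and the range -0.60 to 0.08, and 5 genes were under an unadjusted p of 0.05: Pold1, Pold2, Pold3, Rfc3 and Tk1. Of all genes, 18.5% were under it. Pold3, an accessory subunit of polymerase delta, came nearest, with 903, 801 and 803 normalized counts in WT and 637, 555 and 473 in Mtgr1-/- crypts (-0.60 ± 0.13, adjusted p = 0.0557). Its libraries did not overlap, which held for 5 of the 47 genes (Pold1, Pold2, Pold3, Rrm2 and Tk1) against 13.5% of all genes. The count of genes lower was 0 with edgeR and in every fit without 1 library, 1 (Pold3) with DESeq2 or with median-ratio rescaling, and 8 with array weights. Over all genes the share lower was 2.90% with edgeR, 6.11% with DESeq2, 3.30% with median-ratio rescaling and 8.61% with array weights. The adjusted p of Pold3 ran from 0.00429 to 0.218 over 17 alternatives. Without WT replicate 3, the library rich in leukocyte markers, the median was -0.25. Without Mtgr1-/- replicate 3, whose sum of the 47 genes was lowest, the median was 0.00.

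The genotype difference was more negative at day 1 than in crypts in 42 of the 47 genes, by a limma test of the change itself with mice fitted as random (adjusted p below 0.05), against 20.9% of all genes. The median change was -1.06 on the log2 scale, beside 0.01 for all genes. Uhrf1 changed most (-1.39 ± 0.33, adjusted p = 0.00463), followed by Mcm3 (-1.34 ± 0.32, adjusted p = 0.00518) and Chaf1b (-1.31 ± 0.35, adjusted p = 0.00911). The 5 genes that did not pass were Gins4, Prim2, Pcna, Rfc2 and Rrm2, and Pcna and Rrm2 changed least, by -0.10 ± 0.12 and -0.12 ± 0.19. Without 1 mouse of either genotype the count ran from 31 (without WT mouse 3) to 42. Scaled to library totals, the changes called over the whole table went from 2561 more negative and 2475 more positive to 4436 and 1197, and the median of the 47 to -1.41. From crypts to day 3, 43 of the 47 genes passed, against 14.9% of all genes, with a median change of -0.87 (-1.1 and, for the whole table, 2846 more negative and 1287 more positive in place of 1840 and 2011, when scaled to library totals). That count was 12 without WT mouse 1, 7 without WT mouse 2, 4 without WT mouse 3 and 20 without Mtgr1-/- mouse 2, but 38 without Mtgr1-/- mouse 1 and 44 without Mtgr1-/- mouse 3, and the count over all genes fell with it, from 1840 to 673, 625 and 620 without each WT mouse. Between day 1 and day 3 the change passed in none of the 47 in limma, where 0.00806% of all genes were more negative. None of the 47 was under an unadjusted p of 0.05, against 7.73% of all genes, and the median change was 0.19. Over the whole table that change was more negative in 1 gene and more positive in 3, or 1 and 22 with library totals. Without Mtgr1-/- mouse 2, the difference was less negative at day 3 in 3 genes, Rpa1, Dut and Mcm2, where 3.82% of all genes were.

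Another 50 genes of the replication pathway, listed by role beside the 47, mostly shared the direction at day 1. Of these, 40 were lower, 4 higher and 6 did not pass, with a median of -0.99, where 28.9% of all genes were lower and 30.0% higher. The largest differences below WT were in Cdca7 (-1.95), Dtl (-1.78) and Timeless (-1.64). Dtl is an adaptor of the ubiquitin ligase that removes CDT1 at PCNA. Timeless is a fork protection protein, and Cdca7 a partner of the chromatin remodeler HELLS. Cdca7 had 3535, 3769 and 3160.4 normalized counts in WT and 926, 1001 and 793 in Mtgr1-/- day 1 libraries. The largest differences above WT were in Pold4 (2.16), Donson (1.0) and Samhd1 (0.52, a call lost in 6 of 17 alternatives). Pold4 is the smallest subunit of polymerase delta, Donson acts in assembly of the active helicase, and Samhd1 breaks down deoxynucleotides. Pold4 had 391, 256 and 417 against 1610.5, 1095 and 2125 at day 1, and 273, 202 and 270.1 against 905, 1021 and 792 at day 3 (1.87 ± 0.15, adjusted p = 4.91e-05, limma). Pold4 was thus higher than in WT where Pold1, Pold2 and Pold3, the other subunits of the same polymerase, were lower. At day 3, 39 of the 50 were lower and 4 higher, where 29.1% of all genes were lower and 29.9% higher. The largest differences below WT at day 3 were in Cdca7 (-1.70), Dtl (-1.66) and Dscc1 (-1.37), a subunit of a clamp loader for sister cohesion. Those above WT were largest in Pold4, Donson (0.76) and Rrm2b (0.44), a ribonucleotide reductase subunit whose call was lost in 11 of 17 alternatives. In crypts, Donson was the only 1 of the 50 to pass, with 348, 458 and 323 against 1122, 1345 and 774 (1.5 ± 0.23, adjusted p = 0.0158, limma), a call lost in 2 of 17 alternatives. Of all genes, 3.15% were lower and 1.58% higher in crypts.

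Across the 18 libraries, most of the 47 genes followed 1 profile. Pearson's r of each gene's log2(CPM + 1) with the mean of the other 46 was highest in Lig1 and Mcm2 (0.997) and lowest in Rrm2 (0.747), Pcna (0.804) and Pola2 (0.887). The libraries fall into 6 groups that differ in level, so these values describe the groups as much as the libraries and carry no p. Outside the 47, the genes most like their mean among 11799 compared were Exo1 (0.998), an exonuclease of DNA repair, Hdac2 (0.996), a histone deacetylase, Usp1 (0.994), a deubiquitinase that acts on PCNA, Nasp (0.994), a histone chaperone, and Blm (0.994), a helicase. Exo1 was at 12.9 CPM in WT and 12.7 in Mtgr1-/- crypts, 34.8 and 9.61 at day 1, and 39.1 and 14.1 at day 3.

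Markers of mitosis and of cell types are given beside the 47 genes, and their part in the result was not tested. All 8 mitosis markers were lower at day 1 and at day 3 (medians -1.153 and -1.0) and none passed in crypts, with summed levels at day 1 of 1630 to 1760 CPM in WT and 451 to 822 in Mtgr1-/- libraries. All 6 crypt base stem cell markers were lower and all 10 enterocyte markers higher at day 1 and day 3. Stem cell markers summed to 1022 to 2069 CPM in WT and 24.3 to 37.0 in Mtgr1-/- day 1 libraries, and enterocyte markers to 6891 to 8447 and 17389 to 26161, where their crypt sums overlapped. Gene by gene, the 6 stem cell markers differed by -11.59 to -1.618 at day 1, with a median of -3.345. A sum weighs the most abundant markers most. In crypts the stem cell sum was 1128 to 1492 against 101 to 221, with Olfm4 alone passing. The 6 stem cell markers differed there by -6.77 to 0.49, with a median of -0.30 and 5 of them negative. The mitosis sums overlapped in crypts, at 797 to 1017 against 642 to 945. All 5 Paneth markers were lower at day 1 and day 3. In crypts none of the 5 passed, but all 5 differences were negative, with a median of -4.27. Paneth markers summed there to 3206.5 to 3940.6 CPM in WT and 39.6 to 1082 in Mtgr1-/- libraries. The 5 goblet markers measured were lower at each of the 3 time points. Of the 6 enteroendocrine markers, 6 were lower in crypts, 5 at day 1 and 6 at day 3. Tuft markers went the other way in crypts, where none of the 4 passed but all 4 differences were positive (median 1.71). Their crypt sums were 45.1 to 52.2 CPM in WT and 70.1 to 227 in Mtgr1-/- libraries. At day 1 and at day 3, 3 of the 4 tuft markers were lower. Leukocyte markers summed to at most 37.9 CPM in any enteroid library, the maximum being Mtgr1-/- replicate 3 at day 3. That replicate held 28.6 CPM at day 1, beside 21.1 in WT replicate 3. The remaining enteroid libraries held at most 4.85 CPM. Of the leukocyte markers tested, 1 was higher in Mtgr1-/- at day 1 and 1 at day 3, and none was lower.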

How the data were processed

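RNA from 18 libraries was analysed. The authors trimmed single reads of 50 bp from stranded mRNA libraries with fastp 0.20.0, estimated transcript abundance with Salmon 1.3.0 on GENCODE M21 and normalized gene counts with DESeq2 1.26.0. The deposited values of each library are a linear signal, the gene count divided by 1 factor per library, with 1 table per time point. Reads shared by near-identical genes were apportioned by Salmon. The authors' own comparison columns (a mean signal, log2 fold changes with standard errors, a test score, p-values and adjusted p-values, as deposited) were not used.

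In each table, genes averaging 10 or more entered the test, on log2(normalized count + 1) with limma 3.58.1 (R 4.3.3, eBayes with trend), two-sided, with Benjamini-Hochberg adjustment and a threshold of 0.05. Fold changes on this scale understate those of low genes. Changes between time points were fitted over the 18 libraries together, with mice as random (correlation within a mouse 0.000276). CPM is a library's normalized count divided by its sum. Whole counts, which are rounded Salmon estimates, were recovered in all 18 libraries (100% of values within 1e-06), and served edgeR 4.0.16 and DESeq2 1.42.0 as alternatives. Steps were tested on simulated data.

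The members and lists were chosen with earlier results of these data known. Named genes are, per role, the genes with the largest and smallest difference at day 1. Also named are genes called in crypts or against the main direction, and the 3 largest changes from crypts to day 1. The 3 largest differences in each direction among the other replication genes, and the 5 most alike genes, complete them. Pold3 in crypts and genes given by difference alone were named after their values were seen. At day 1, libraries of the same mouse number deviated together (r = 0.116, 0.231 and 0.216 over genes), which counts as paired. In crypts the same-numbered values were also positive (0.0764, 0.274 and 0.346), but WT library 1 had a higher r with Mtgr1-/- library 2 (0.2005). At day 3 the same-numbered values were near 0 (-0.0067, -0.0023 and -0.0156). The pairing comes from the data alone.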

Additional observations from a re-analysis of the deposited data

Results flagged for a closer look

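The genotype difference itself changed with time in most of the replication genes, by the test of that change in limma over all 18 libraries. It was more negative at day 1 than in crypts in 42 of the 47 genes, against 20.9% of all genes. At day 3 it was more negative than in crypts in 43, against 14.9% of all genes. The 3 largest changes from crypts to day 1 were those of Uhrf1 (-1.389 on the log2 scale), Mcm3 (-1.338) and Chaf1b (-1.308). Groups hold 3 libraries each, too few for a search for single outlying libraries. The day 3 count fell to between 4 and 20 without any 1 of the WT mice or without Mtgr1-/- mouse 2, and was 38 and 44 without Mtgr1-/- mouse 1 or 3.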

How the results depend on the processing

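The alternatives were other pseudocounts (0.1 and 8), other filters, scaling to library totals, median-ratio rescaling, quantile normalization, array weights, the replicate block, edgeR and DESeq2 on recovered reads, and each library or mouse left out. In crypts the number of the 47 genes called lower was 0, and 1 with median-ratio rescaling, 8 with array weights and 1 with DESeq2. The share of all genes lower was 3.15%, and 3.30%, 8.61% and 6.11% with these alternatives in that order. At day 1 the median was -1.58 with library totals in place of -1.26. The replicate block left 45 genes lower at day 1, Rrm2 being lost, and changed no other call of the 47 in crypts or at day 3. Leaving out the mouse effect from the changes between time points changed no call. With a correlation within a mouse of 0.000276 the fits with and without it were nearly the same, so this alternative could not check the calls.

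Without 1 library, the crypt count stayed at 0 and the crypt median ran from -0.32 to 0.00. The day 1 count ran from 45 to 46 and its median from -1.38 to -1.11, and the day 3 count from 45 to 47 and its median from -1.28 to -0.86. Without 1 mouse, the count of more negative differences ran from 31 to 42 between crypts and day 1 (median -1.13 to -0.94) and from 4 to 44 between crypts and day 3 (median -1.02 to -0.57). It was 12, 7 and 4 without WT mouse 1, 2 or 3 and 20 without Mtgr1-/- mouse 2, but 38 and 44 without Mtgr1-/- mouse 1 or 3. Such a fit has fewer libraries, and any other cause was not tested. Between day 1 and day 3 the count of less negative differences ran from 0 to 3, the 3 being found without Mtgr1-/- mouse 2, where 3.82% of all genes were called so, and the median from 0.01 to 0.49. Over the 47 genes, 100 values called neither here nor under the alternative changed sign, 56 in crypts and 44 in the change from day 1 to day 3, none larger than 0.30. No called value of the 47 changed sign. A comparison of protein sequences planned for the MCM genes was not run. The limits that remain are 3 mice per genotype, bulk RNA, tables scaled one by one, and no measure of cell number.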
